A study of Rattus norvegicus with 9 samples.

Results

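The set described here is 10 genes for transcription factors of heart development, taken by name from the 17337 genes of the count table: Gata4, Gata5, Gata6, Hand1, Hand2, Nkx2-5, Isl1, Meis1, Meis2 and Srf. They were followed across 9 RNA sequencing libraries of cardiac fibroblasts, the connective-tissue cells of the heart, taken from Sprague Dawley rats and grown in culture. The ages were fetal (E18, embryonic day 18), neonatal (P1, postnatal day 1) and adult (7 weeks), with 3 libraries each. All cultures were passage 0 (P0) isolates without a stated sort, genetic change or drug treatment, and all were grown to confluency in medium with serum and ascorbic acid. The labels do not say whether the libraries of an age came from separate animals or cultures, so p-values measure only the spread between these libraries.

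GATA factors are zinc-finger proteins that bind GATA sequences, and the heart uses Gata4, Gata5 and Gata6. HAND proteins are basic helix-loop-helix factors that bind DNA as dimers, NKX2-5 and ISL1 are homeodomain factors of the cardiomyocyte lineage and of cardiac progenitors, and MEIS proteins are homeodomain factors that bind DNA with PBX partners. SRF binds the CArG box and, depending on its cofactor, drives contractile genes or growth-responsive immediate early genes. Cardiac fibroblasts are known to express several of these factors, such as Gata4, outside the muscle lineage.

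Promoter sequences were read to show where members carry binding motifs of other members. RefSeq windows on GRCr8 were found for 7 of the 10 genes, not for Gata4, Gata5 and Meis2, and each covered 220 bases from 250 to 31 bases before the transcription start. The motifs searched on both strands were the CArG box of SRF, AGATAA and TGATAA of GATA factors, TGACAG of MEIS factors, AAGTG of NKX2-5, and the general promoter elements GGGCGG and TATAAA. Srf (chr9:21923826-21924045, plus strand) held 2 CArG boxes, at 81 to 72 and 61 to 52 bases before its start, while 1.32% of 33469 rat promoter windows of the same length held any. AGATAA was found in Hand2 (chr16:37931519-37931738, minus strand; the motif reads TTATCT on the printed strand) and Isl1 (chr2:49823473-49823692, minus strand), and in 9.29% of all windows. The 3 windows follow, 5′ to 3′ towards the gene, with the CArG boxes and the AGATAA motifs in capitals.
Srf: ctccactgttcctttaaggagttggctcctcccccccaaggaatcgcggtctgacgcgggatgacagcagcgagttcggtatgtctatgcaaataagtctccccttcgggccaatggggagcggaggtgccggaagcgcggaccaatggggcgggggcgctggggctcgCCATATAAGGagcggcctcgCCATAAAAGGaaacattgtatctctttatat
Hand2: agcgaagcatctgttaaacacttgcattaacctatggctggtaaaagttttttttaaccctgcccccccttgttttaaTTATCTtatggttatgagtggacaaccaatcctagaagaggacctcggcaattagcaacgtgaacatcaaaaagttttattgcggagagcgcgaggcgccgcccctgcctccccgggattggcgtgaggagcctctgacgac
Isl1: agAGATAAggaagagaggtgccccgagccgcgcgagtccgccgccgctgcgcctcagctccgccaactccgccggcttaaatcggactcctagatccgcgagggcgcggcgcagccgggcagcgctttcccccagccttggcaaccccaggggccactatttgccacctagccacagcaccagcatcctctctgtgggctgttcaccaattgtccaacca
TGACAG was found in Gata6, Nkx2-5 and Srf (13.9% of all windows), AAGTG in Hand2 (36.6%), GGGCGG in Gata6, Hand1, Hand2 and Srf (27.3%) and TATAAA in Hand1 and Srf (11.1%), and TGATAA in none of the 7 (7.23%). No matches overlapped each other. These matches describe sequence only.

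The libraries held 13392825 to 22850491 counts assigned to genes. Fetal replicate 3 stood apart: its counts differed from those of fetal replicates 1 and 2 by a chi-square per degree of freedom of 95.6 and 103, against 4.12 between those 2 libraries. Its summed lung epithelial markers reached 82.0 CPM (counts per 1000000 counts, with library sizes scaled by TMM), against 1.62 and 1.54 CPM in the other fetal libraries. Of these 6 lung genes, Sftpb and Sftpa1 were at 0 in every fetal library, and only 1 gene passed the low-count filter. Its skeletal muscle markers summed to 27.8 CPM, against 4.64 and 3.57 CPM, and its mural cell markers to 129 CPM, against 398 and 376 CPM. Adult replicate 1 differed from the other adult libraries by 27.1 and 45.2, against 7.00 between those. Fibroblast markers were abundant in every library (22010 to 74105 CPM summed over 9 genes), although Col1a2, the collagen I alpha 2 chain, was at or under 0.976 CPM in every library. Summed cardiomyocyte markers (14 genes) ranged from 10417 to 14699 CPM in fetal, 6573 to 7219 CPM in neonatal and 313 to 324 CPM in adult libraries. In the adult libraries Csrp3 was at 0, and Tnnt2 alone gave 303 to 316 CPM of the sum. Macrophage markers (6 genes) ran from 11.3 to 39.5 CPM in fetal, 63.9 to 71.2 CPM in neonatal and 1398 to 1851 CPM in adult libraries.

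All 10 genes were detected in fetal and neonatal libraries, and 4 of them (Gata5, Hand1, Nkx2-5 and Isl1) had no count in any adult library. Gene positions are given on rn6, the build of the counts, and in that annotation no member shares exon bases with another gene. Members were read out of an edgeR quasi-likelihood fit over 11337 genes, with Benjamini-Hochberg adjusted p under 0.05 as the threshold. From fetal to neonatal, 1 member rose and 6 fell, where 36.3% of all tested genes were called (18.3% higher and 18% lower). From fetal to adult none rose and 7 fell, against a background of 70.5% called (34.9% higher and 35.5% lower). From neonatal to adult none rose and 8 fell, against 63.5% called (31.6% higher and 31.8% lower). Hand1 and Isl1 passed the low-count filter only through their fetal libraries, and Gata5 and Nkx2-5 only through their fetal and neonatal ones, so their lower values at the remaining ages were built into the filter. The members past the filter at both ages compared numbered 8 for fetal and neonatal, of which 4 fell and 1 rose, 6 for fetal and adult, of which 3 fell, and 6 for neonatal and adult, of which 4 fell. The libraries of both ages did not overlap for 8, 7 and 9 of the 10 members in these comparisons, against 57.4%, 71.8% and 76.1% of all tested genes. These counts include the genes whose lower values were built into the filter. Of the 6 members past the filter at fetal and adult ages, only Meis1, Meis2 and Srf did not overlap, a share below that of all tested genes. The comparisons share libraries and are not independent of each other. The median log2 change over the 10 members was -0.73, -1.60 and -0.87, beside -0.01, -0.01 and -0.01 over all tested genes. The last of the member medians was -0.67 with genes at 0 in adult libraries set to their bounds. These medians include the genes whose lower values were built into the filter, so they add no support for a fall of the whole set. Scaling by library size alone moved the median of all genes to -0.18 from fetal to neonatal and to -0.12 from fetal to adult, and lowered the share of calls that were higher from 50.4% to 29.0% from fetal to neonatal. In such cultures, fewer cells of a type and less RNA per cell cannot be told apart.

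**Figure D1:**
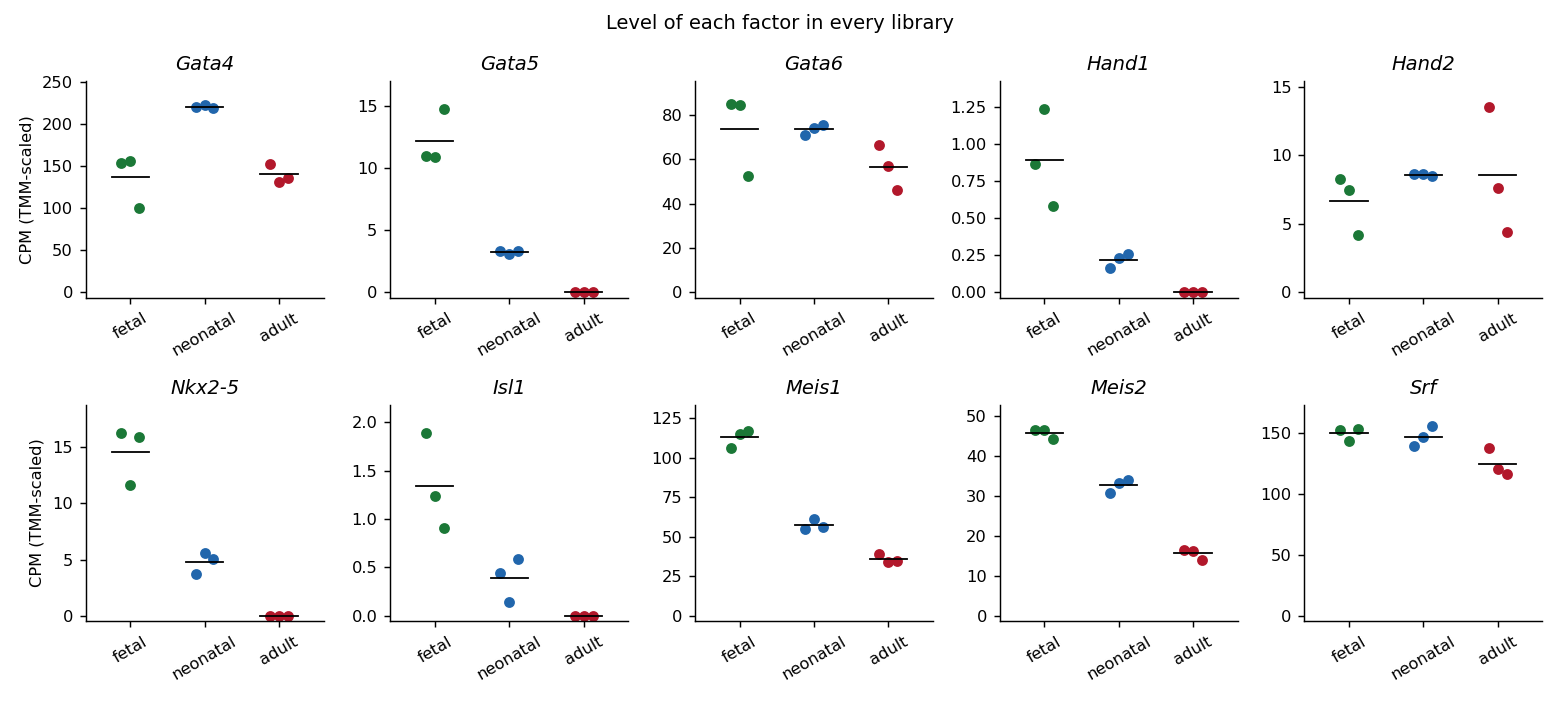
Level of each of the 10 factors in CPM (linear axis from 0), with 1 point per library and a line at the mean of each age. Gata4 was highest in the 3 neonatal libraries, Meis1 and Meis2 were lower at each later age, and Gata5, Hand1, Nkx2-5 and Isl1 were at 0 in the 3 adult libraries.

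Gata4 (chr15:46386705-46432914, minus strand, rn6), the GATA factor with the highest level per kilobase at every age, peaked in the neonatal libraries. Its levels were 154, 157 and 101 CPM in fetal replicates 1 to 3, 220.2, 223 and 219.8 CPM in neonatal replicates and 153, 131 and 136 CPM in adult replicates. Every neonatal library stood above every fetal and adult library, while fetal and adult libraries overlapped. Gata4 rose from fetal to neonatal by 0.69 ± 0.15 (log2, SE; adjusted p = 0.00732). It fell by 0.66 ± 0.15 from neonatal to adult (adjusted p = 0.00377). Adult and fetal libraries differed by 0.03 ± 0.15 (adjusted p = 0.858). Without fetal replicate 3 the rise to neonatal was 0.51 (adjusted p = 0.000111), and the adult value against fetal was -0.15 (adjusted p = 0.0504). Marker sums moved with Gata4: mural markers (5 genes, none at 0) ranged from 129 to 398 CPM in fetal, 658 to 720 CPM in neonatal and 94.7 to 141 CPM in adult libraries. Fibroblast markers (9 genes, none at 0) ranged from 23647 to 50423, 67842 to 74105 and 22010 to 29714 CPM. Single markers did not all follow the sums, which rest mostly on Notch3 and on Col1a1 and Col3a1. From fetal to neonatal 2 mural markers rose and 3 were not called, and 3 fibroblast markers rose and 6 were not called. From neonatal to adult 4 mural markers fell, and 5 fibroblast markers fell and 2 rose. Of all tested genes 36.3% and 63.5% were called in these comparisons. The part of mural cells and fibroblasts in the Gata4 peak was not tested.

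Gata6 (chr18:2415821-2447087, plus strand), which overlaps with Gata4 in function in the developing heart, did not follow it. Its fetal levels were 84.8, 84.5 and 52.3 CPM, its neonatal levels 70.9, 74.3 and 75.6 CPM and its adult levels 66.7, 56.9 and 46.1 CPM. Neonatal libraries lay between the high and low fetal libraries, and every adult library was below every neonatal one. No comparison of Gata6 passed the threshold: the log2 differences were -0.01 ± 0.19 for neonatal against fetal (adjusted p = 0.986), -0.39 ± 0.19 for adult against fetal (adjusted p = 0.0962) and -0.38 ± 0.19 for adult against neonatal (adjusted p = 0.109). Without fetal replicate 3, adult libraries were lower than fetal (log2 -0.59, adjusted p = 0.00132) and lower than neonatal (log2 -0.38, adjusted p = 0.00937), while neonatal against fetal still did not pass (adjusted p = 0.206). With all libraries kept, adult against fetal passed with library size alone as the scaling (log2 -0.48, adjusted p = 0.0192), and adult against neonatal with only those ages fitted (log2 -0.39, adjusted p = 0.0166).

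Gata5 (chr3:175701278-175709465, minus strand), the GATA factor of endocardium and endoderm, was lower in neonatal than in fetal libraries and had no count in adult ones. Fetal libraries had 10.96, 10.8 and 14.7 CPM, neonatal libraries 3.30, 3.02 and 3.30 CPM, and adult libraries 0. The groups did not overlap, and fetal replicate 3 was the highest library. Gata5 fell by 1.92 ± 0.19 from fetal to neonatal (log2, SE; adjusted p = 0.000452). A count of 0 still allows up to 3 counts per library, or 0.230 CPM, so adult libraries were at least 53.0-fold lower than fetal (adjusted p = 8.1e-07) and at least 13.97-fold lower than neonatal (adjusted p = 8.43e-06). Gata5 passed the low-count filter only through fetal and neonatal libraries, so its lower adult values were built into the filter and these adult p-values add no support.

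Ratios between GATA genes were taken within each library and per kilobase of exon, so that they do not depend on scaling. The Gata6 to Gata4 ratio was 0.602, 0.588 and 0.566 in fetal, 0.351, 0.364 and 0.375 in neonatal, and 0.476, 0.473 and 0.369 in adult libraries. All fetal ratios were above all others, and neonatal and adult ratios overlapped through adult replicate 3. The ratio differed between ages (exact permutation test over 1680 assignments of libraries to ages, p = 0.00714, adjusted over the 2 ratios tested 0.0143, with 0.00357 the smallest possible). The Gata5 to Gata4 ratio averaged 0.143 in fetal and 0.0232 in neonatal libraries, and it was not tested because Gata5 was at 0 in adult libraries. As shares of the 3 GATA genes per kilobase, Gata4 made up 57.6 ± 1.75% (SD, n = 3) of the fetal, 72.1 ± 0.619% of the neonatal and 69.6 ± 3.02% of the adult sum. Gata5 made up 8.66 ± 3.67%, 1.66 ± 0.0946% and 0%. The fetal share of Gata5 was 12.9% in replicate 3 and 6.60% and 6.47% in replicates 1 and 2.

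**Figure D2:**
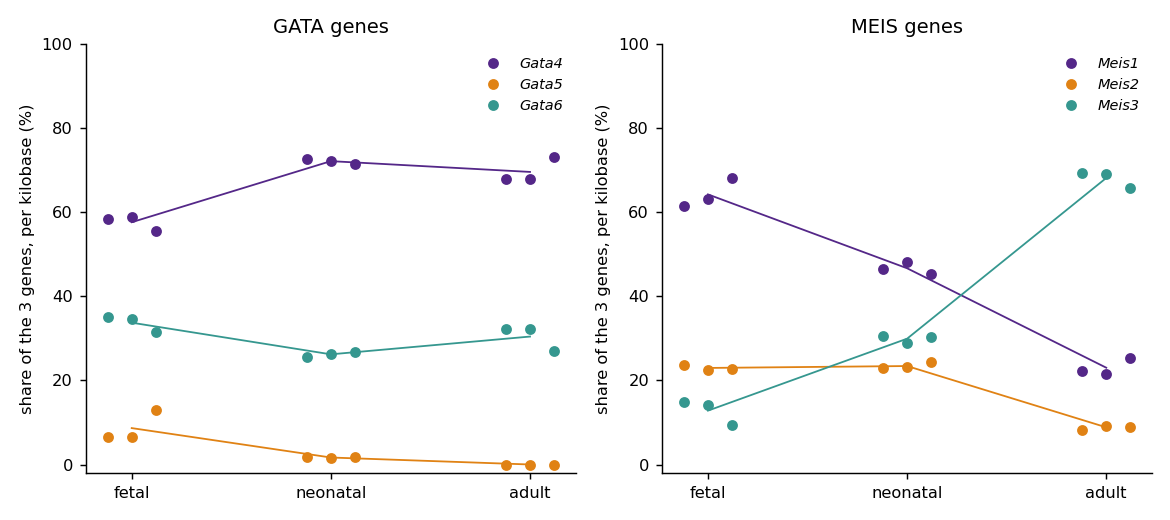
Share of each gene in the summed level of its family per kilobase of exon (percent), with 1 point per library and a line through the means of each age. Gata4 held the largest GATA share at every age, and Meis3 passed Meis1 in the adult libraries.

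Of the other GATA genes, which act in blood and nervous tissue, Gata1 had no count in any library, and Gata2 and Gata3 were low at all ages. Gata2 rose from fetal to adult by 1.23 ± 0.30 (log2; adjusted p = 0.00473) and reached 4.79 ± 1.65 CPM (SD, n = 3). Gata3 rose from fetal to neonatal by 0.97 ± 0.18 (log2; adjusted p = 0.00364), to 9.21 ± 1.32 CPM. Of 6 genes for proteins that bind GATA factors, NKX2-5 or ISL1, 5 were in the table. From fetal to neonatal 1 of them rose, from fetal to adult 3 fell and 1 rose, and from neonatal to adult again 3 fell and 1 rose, with median log2 changes of 0.25, -0.65 and -1.06 (36.3%, 70.5% and 63.5% of all tested genes called). Zfpm2 (FOG2), the GATA4 cofactor of the heart, fell by 0.65 ± 0.16 from fetal to adult (adjusted p = 0.00508) and by 1.06 ± 0.16 from neonatal to adult (adjusted p = 0.000337). Lmcd1, which restrains GATA6, was at 220.3 ± 58.2 CPM in fetal, 338 ± 7.01 CPM in neonatal and 122 ± 7.41 CPM in adult libraries. Lmcd1 rose from fetal to neonatal by 0.62 ± 0.17 (log2; adjusted p = 0.0197) and fell from neonatal to adult by 1.46 ± 0.17 (adjusted p = 7.28e-05). Its rise was lost without neonatal replicate 1, 2 or 3 (adjusted p = 0.0593, 0.0541 and 0.0554). Zfpm1 (FOG1) passed in no comparison.

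Hand2 (chr16:36305833-36373549, minus strand), expressed in both muscle and connective tissue of the heart, was found at all ages and passed in no comparison. Its levels were 8.26, 7.45 and 4.20 CPM in fetal, 8.59, 8.64 and 8.48 CPM in neonatal and 13.5, 7.58 and 4.42 CPM in adult libraries. Adult libraries overlapped those of both other ages, while every fetal library lay below every neonatal one. Adult replicate 1 was the highest of the 9 libraries and fetal replicate 3 the lowest. The log2 differences were 0.37 ± 0.37 for neonatal against fetal (adjusted p = 0.462), 0.36 ± 0.37 for adult against fetal (adjusted p = 0.414) and -0.01 ± 0.37 for adult against neonatal (adjusted p = 0.982). Without adult replicate 1 the adult value against fetal was -0.14 (adjusted p = 0.708). Its promoter window, printed above, holds AGATAA on the strand opposite to the printed one.

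Hand1 (chr10:43250730-43253296, minus strand), the paralog of the left ventricle and outer curvature, was near the detection limit. It had 16, 28 and 11 counts in fetal, 3, 5 and 4 counts in neonatal and 0 counts in adult libraries, or at most 1.23 CPM. The fetal libraries stood above the neonatal ones. Hand1 fell by 2.01 ± 0.49 from fetal to neonatal (log2, SE; adjusted p = 0.0174), a call that was lost without fetal replicate 2 (adjusted p = 0.0603) or without neonatal replicate 1, 2 or 3 (adjusted p = 0.0773, 0.0715 and 0.0605). Adult libraries were at least 3.90-fold lower than fetal (adjusted p = 0.000469). Against neonatal libraries Hand1 passed the test (adjusted p = 0.0109), but the neonatal mean lay under the limit of 3 counts and gives no fold. Hand1 passed the low-count filter only through its fetal libraries. Its lower values at later ages were thus built into the filter, and the adjusted p-values against fetal add no support. Per kilobase, the Hand1 to Hand2 ratio was 0.0875 in fetal and 0.0180 in neonatal libraries, with no test. Levels per kilobase of Hand2 are uncertain, as its annotated exons came to only 681 bases in 14 blocks.

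HAND proteins bind DNA with E proteins (Tcf3, Tcf4, Tcf12), also pair with Twist proteins, and are held back by ID proteins, which keep E proteins off DNA. Of these 9 partners and inhibitors, 3 rose and 1 fell from fetal to neonatal, 4 rose and 2 fell from fetal to adult, and 4 rose and 1 fell from neonatal to adult. These shares lay near those of all tested genes (36.3%, 70.5% and 63.5% called), and the median log2 changes were -0.07, -0.01 and 0.37. The 4 that rose to adult were Id1, Id2, Id3 and Id4, and those that fell from fetal to adult were Tcf3 and Tcf12. Id2 rose from 18.1 ± 1.88 CPM in fetal to 53.7 ± 1.24 CPM in neonatal and 102 ± 17.3 CPM in adult libraries (adult against fetal log2 2.498 ± 0.127, adjusted p = 2.33e-07). Id1 rose by 1.35 ± 0.48 from fetal to adult (log2; adjusted p = 0.0322), with 237 CPM in adult replicate 1 against 62.6 and 56.8 CPM in the other adult libraries. The Id1 call was lost without fetal replicate 1, 2 or 3 (adjusted p = 0.0717, 0.081 and 0.132), without the low-count filter (adjusted p = 0.0549), with the replicate block (adjusted p = 0.0607) and with only the 2 ages fitted (adjusted p = 0.0701). Tcf12 fell by 1.15 ± 0.08 from fetal to adult (log2; adjusted p = 1.31e-06). Tcf4, Twist1 and Twist2 passed in no comparison.

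Nkx2-5 (chr10:16635989-16638758, plus strand), a defining factor of cardiomyocytes, was present in fetal and neonatal cultures and had no count in adult cultures. Its levels were 16.3, 11.6 and 15.9 CPM in fetal, 3.69, 5.58 and 5.05 CPM in neonatal and 0 in adult libraries. Groups did not overlap. Nkx2-5 fell by 1.61 ± 0.22 from fetal to neonatal (log2, SE; adjusted p = 0.00183). Adult libraries were at least 63.6-fold lower than fetal (adjusted p = 1.78e-06) and at least 20.8-fold lower than neonatal (adjusted p = 1.21e-05). Nkx2-5 passed the low-count filter only through fetal and neonatal libraries, so its lower adult values were built into the filter and these adult p-values add no support.

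Isl1 (chr2:48488911-48501217, minus strand), a LIM-homeodomain factor of second heart field progenitors and of sympathetic neurons, was scarce. It had 35, 28 and 17 counts in fetal, 8, 3 and 9 counts in neonatal and 0 counts in adult libraries. The groups did not overlap, although fetal libraries did not exceed 1.89 CPM. Isl1 fell by 1.83 ± 0.55 from fetal to neonatal (log2, SE; adjusted p = 0.0375). This call was lost without the low-count filter (adjusted p = 0.0587), with the replicate number as a block (adjusted p = 0.0599), without fetal replicate 1 or 2 (adjusted p = 0.103 and 0.0704) and without neonatal replicate 1, 2 or 3 (adjusted p = 0.102, 0.118 and 0.0642). Adult libraries were at least 5.85-fold lower than fetal (adjusted p = 0.000782) and at least 1.69-fold lower than neonatal (adjusted p = 0.011). Isl1 passed the low-count filter only through its fetal libraries. Its lower values at later ages were thus built into the filter, and the adjusted p-values against fetal add no support. Of its LIM-domain binding partners, Ldb1 rose from fetal to adult by 0.47 ± 0.08 (log2; adjusted p = 0.000386), and Ldb2 fell by 3.70 ± 0.66 (adjusted p = 0.000806). Sympathetic neuron markers (5 genes) summed to 29.7 to 48.6 CPM in fetal, 2.37 to 3.25 CPM in neonatal and at most 0.225 CPM in adult libraries. The defining genes Phox2a and Chga were at 0 in all 9 libraries, and Stmn2 alone gave 25.8 to 44.9 CPM of the fetal sum. The part of such cells in the Isl1 values was not tested.

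Cardiomyocyte markers moved with the 4 genes lost in adult cultures. Of the 14 markers, 12 fell from fetal to neonatal, and all 14 were lower in adult libraries in both comparisons with them. Of all tested genes, 18%, 35.5% and 31.8% were called lower from fetal to neonatal, fetal to adult and neonatal to adult. In adult libraries 5 of the 14 had at most 3 counts in every library, so their lower adult values were built into the filter. The sum averaged 12942 ± 2242 CPM (SD, n = 3) in fetal, 6850 ± 332 CPM in neonatal and 318 ± 5.97 CPM in adult libraries. Per 1000 CPM of that sum, Nkx2-5 was at 1.17 ± 0.371 in fetal and 0.695 ± 0.132 in neonatal libraries, and the ages overlapped. Gata5 was at 0.983 ± 0.373 and 0.469 ± 0.0295, without overlap. Isl1 was at 0.103 ± 0.0304 and 0.0561 ± 0.0315, without overlap, and Hand1 at 0.0677 ± 0.0145 and 0.0318 ± 0.00582, without overlap. Meis1 was near level on this scale, at 8.94 ± 1.996 and 8.41 ± 0.653. Gata4 was higher in neonatal libraries, at 10.5 ± 0.783 and 32.3 ± 1.62, as was Gata6, at 5.65 ± 0.590 and 10.8 ± 0.260. The sum itself was lower in neonatal libraries, so a gene with a steady CPM lies higher there on this scale. In CPM, Gata6 did not pass for neonatal against fetal (edgeR, log2 -0.01, adjusted p = 0.986). The part of cardiomyocytes in the levels of the members was not tested.

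**Figure D3:**
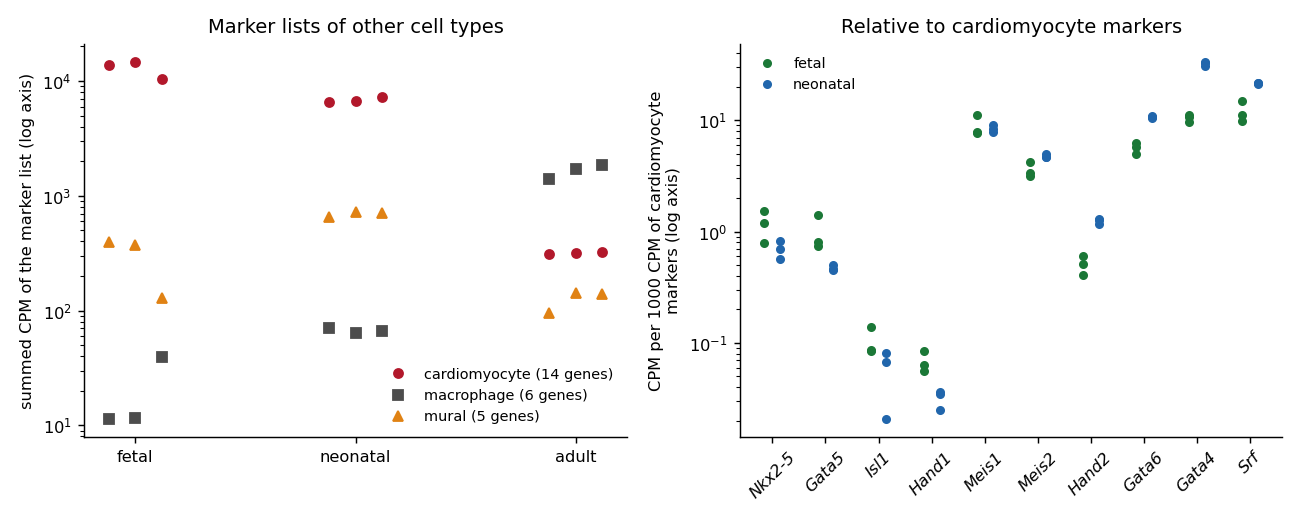
Left, summed CPM of cardiomyocyte, macrophage and mural cell markers in each library (log axis). Right, level of each factor per 1000 CPM of cardiomyocyte markers in fetal and neonatal libraries (log axis, 1 point per library), where fetal and neonatal points overlap for Nkx2-5 and Meis1 and neonatal points lie above fetal ones for Gata4, Gata6, Hand2, Meis2 and Srf.

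Meis1 (chr14:103182178-103321129, minus strand), a factor tied to the arrest of cardiomyocyte division after birth, was lower at each later age. Its levels were 106, 115 and 117 CPM in fetal, 55.1, 61.3 and 56.1 CPM in neonatal and 39.0, 33.7 and 34.8 CPM in adult libraries. No library of one age overlapped another age. Meis1 fell by 0.97 ± 0.08 from fetal to neonatal (log2, SE; adjusted p = 4.94e-05), by 0.68 ± 0.08 from neonatal to adult (adjusted p = 6.88e-05) and by 1.65 ± 0.08 from fetal to adult (adjusted p = 1.76e-07). These calls held under all 15 alternatives tried for each comparison.

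Meis2 (chr3:107560197-107760589, minus strand), its close paralog, also fell at both steps. Its levels were 46.4, 46.5 and 44.3 CPM in fetal, 30.7, 33.4 and 34.0 CPM in neonatal and 16.5, 16.3 and 14.1 CPM in adult libraries, again without overlap. Meis2 fell by 0.48 ± 0.08 from fetal to neonatal (log2, SE; adjusted p = 0.00232), by 1.06 ± 0.09 from neonatal to adult (adjusted p = 7.56e-06) and by 1.55 ± 0.09 from fetal to adult (adjusted p = 4.13e-07). The Meis1 to Meis2 ratio per kilobase was 2.59, 2.81 and 2.998 in fetal, 2.03, 2.08 and 1.87 in neonatal and 2.67, 2.34 and 2.80 in adult libraries. It was lowest in the 3 neonatal libraries and differed between ages (exact permutation test, p = 0.0143, adjusted over the 2 ratios tested 0.0143). Without neonatal replicate 3 the adjusted p of this ratio was 0.05.

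Among the MEIS partners and relatives, 9 genes of the TALE homeodomain class, 8 were tested. From fetal to neonatal 3 rose and 2 fell, from fetal to adult 3 rose and 4 fell, and from neonatal to adult 2 rose and 2 fell, where 36.3%, 70.5% and 63.5% of all tested genes were called. With library size alone or with DESeq2, 4 fell from fetal to neonatal. The median log2 changes were -0.15, -0.39 and 0.05. Pbx3, a DNA-binding partner of MEIS proteins, fell by 0.51 ± 0.10 from fetal to adult (log2; adjusted p = 0.000958). Meis3, the third MEIS gene, moved the other way, with 18.6, 18.8 and 11.6 CPM in fetal, 26.3, 26.6 and 27.1 CPM in neonatal and 88.1, 78.0 and 65.7 CPM in adult libraries. Meis3 rose by 2.24 ± 0.18 from fetal to adult (log2; adjusted p = 3.93e-06). As shares of the 3 MEIS genes per kilobase, Meis1 made up 64.2 ± 3.40% (SD, n = 3) of the fetal, 46.7 ± 1.35% of the neonatal and 23.0 ± 1.93% of the adult sum, and Meis3 12.8 ± 3.05%, 29.9 ± 0.959% and 68.1 ± 2.03%. The summed MEIS level per kilobase was 70.8 ± 2.22, 49.7 ± 1.82 and 63.1 ± 7.51 CPM. Pknox2, a related factor that also binds PBX, rose by 1.49 ± 0.13 from fetal to adult (log2; adjusted p = 7.23e-06), and Tgif1, a TALE repressor, rose by 0.79 ± 0.07 (adjusted p = 9.77e-06).

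**Figure D4:**
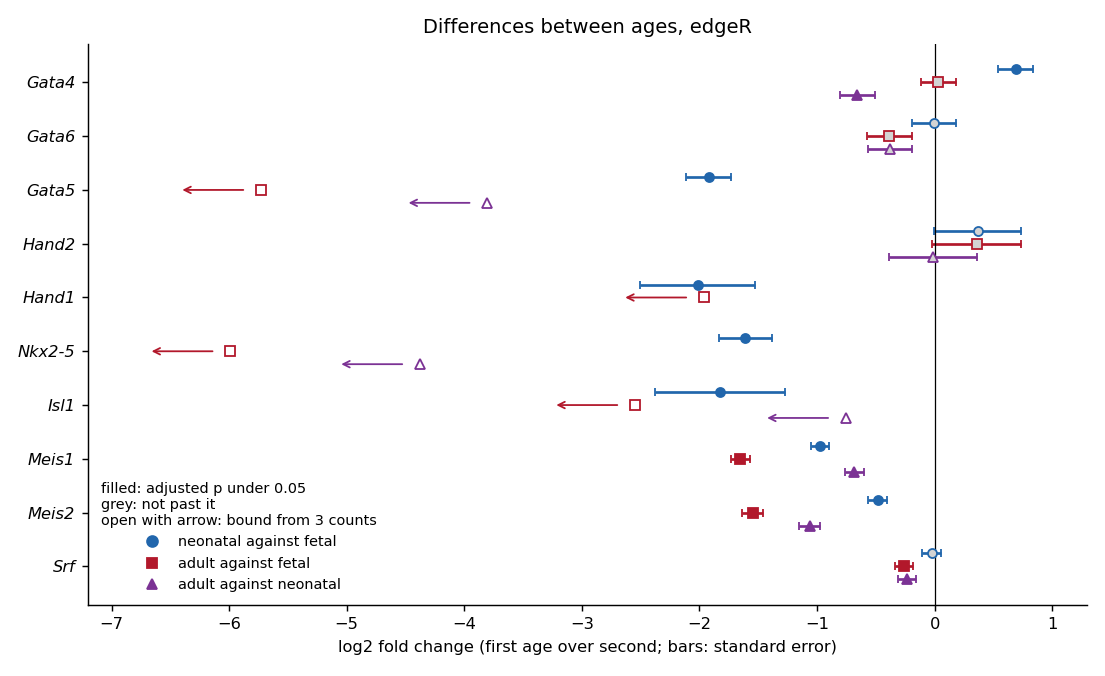
Log2 fold change of each factor in the 3 comparisons of ages, with bars for the standard error. Filled symbols passed adjusted p under 0.05 and grey ones did not; open symbols with arrows are bounds from 3 counts per adult library, as for Nkx2-5 (at least 63.6-fold lower in adult than fetal), and Hand1 has no fold for adult against neonatal.

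Srf (chr9:16737642-16747225, plus strand), a factor of most cell types, passed in both comparisons with adult libraries, with small changes. Its levels were 153, 144 and 154 CPM in fetal, 139, 147 and 156 CPM in neonatal and 138, 121 and 117 CPM in adult libraries. Fetal and neonatal libraries overlapped, and the adult libraries lay below both, with adult replicate 1 close to the lowest neonatal library. Srf fell by 0.26 ± 0.08 from fetal to adult (log2, SE; adjusted p = 0.0139) and by 0.23 ± 0.08 from neonatal to adult (adjusted p = 0.0255). Neonatal against fetal differed by -0.03 ± 0.08 (adjusted p = 0.818). The fall from fetal was lost without adult replicate 2 or 3 (adjusted p = 0.0536 and 0.0531). The fall from neonatal was lost with library size alone as the scaling (log2 -0.18, adjusted p = 0.117), without neonatal replicate 2 or 3 (adjusted p = 0.0555 and 0.0773) and without adult replicate 2 or 3 (adjusted p = 0.0828 and 0.0858).

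Some SRF cofactors changed by more than Srf itself, among them Myocd, Hopx and Csrp2. Of 10 genes listed, 8 were in the table, and the coactivator genes Mrtfa and Mrtfb were missing, so their levels are not known. Of the 8, 3 rose and 2 fell from fetal to neonatal, 1 rose and 2 fell from fetal to adult, and 1 rose and 4 fell from neonatal to adult. The median log2 changes were 0.14, -0.06 and -0.28 (36.3%, 70.5% and 63.5% of all tested genes called). The 3 higher calls from fetal to neonatal became 1 with library size alone or without neonatal replicate 1, 2 or 3. The 1 higher call from neonatal to adult became 2 without fetal replicate 3 or with only those ages fitted. Myocd (myocardin), the muscle coactivator of SRF, was at 40.6, 45.1 and 26.7 CPM in fetal, 18.9, 18.6 and 15.5 CPM in neonatal and had 1, 3 and 4 counts in adult libraries, at most 0.300 CPM. Myocd fell by 1.08 ± 0.19 from fetal to neonatal (log2; adjusted p = 0.00296) and by 7.51 ± 0.35 from fetal to adult (adjusted p = 1.36e-07). Myocd passed the low-count filter only through fetal and neonatal libraries. Its lower adult values were thus built into the filter, and the adult p-value adds no support. Hopx, a homeodomain protein that restrains SRF, rose by 2.80 ± 0.14 from fetal to adult (log2; adjusted p = 2.11e-07), and Csrp2, a LIM protein that binds SRF, fell by 1.86 ± 0.23 (adjusted p = 7.16e-05). The ternary complex factors Elk1, Elk3 and Elk4, which lead SRF to immediate early genes, passed in no comparison.

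SRF target genes differed by class. Of 16 contractile targets, 4 rose and 2 fell from fetal to neonatal (36.3% of all tested genes called, 18.3% higher and 18% lower). From fetal to adult 11 fell and none rose (70.5% called, 34.9% higher and 35.5% lower). From neonatal to adult 15 fell and none rose (63.5% called, 31.6% higher and 31.8% lower). Regardless of direction, the contractile calls lay near the share of all genes in the first 2 comparisons. The median log2 changes were 0.20, -1.12 and -1.45, beside -0.01 over all tested genes in each comparison. The 4 higher calls from fetal to neonatal became 1 without fetal replicate 3 or without neonatal replicate 1, 2 or 3, 7 without adult replicate 1 and 2 with library size alone. The 2 lower calls became 1 without neonatal replicate 1, 2 or 3 and 4 with library size alone. Actg2, the smooth muscle gamma actin, fell by 6.19 ± 0.19 from fetal to adult (log2; adjusted p = 1.03e-08), and Cnn1 (calponin) fell by 3.20 ± 0.36 (adjusted p = 5.59e-05). Lmod1, a leiomodin of smooth muscle, rose by 1.23 ± 0.32 from fetal to neonatal (log2; adjusted p = 0.0181), a call lost without fetal replicate 3 (adjusted p = 0.0517) or neonatal replicate 1, 2 or 3 (adjusted p = 0.0528, 0.0543 and 0.051). Of 9 immediate early targets, 1 rose from fetal to neonatal, 8 rose from fetal to adult and 6 rose from neonatal to adult, and none fell. Over all tested genes 18.3%, 34.9% and 31.6% were called higher. The median log2 changes of the immediate early targets were 0.75, 2.94 and 2.38. Without fetal replicate 3 the first median was 0.21. From fetal to neonatal 2 rose without fetal replicate 1 or adult replicate 1, with DESeq2 and with only those ages fitted. Without adult replicate 1 the counts to adult were 7 and 5. Nr4a1, a nuclear receptor induced by growth signals, rose by 4.50 ± 0.53 from fetal to adult (log2; adjusted p = 7.22e-05), with 533 CPM in adult replicate 1 against 144 and 155 CPM in the others. Egr2, a zinc-finger factor, rose by 4.10 ± 0.13 (log2; adjusted p = 1.32e-08), with 173 to 214 CPM in adult libraries and 9.24 to 12.3 CPM in fetal ones. Mural and macrophage marker sums moved between ages as given above, and their part in these target genes was not tested.

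**Figure D5:**
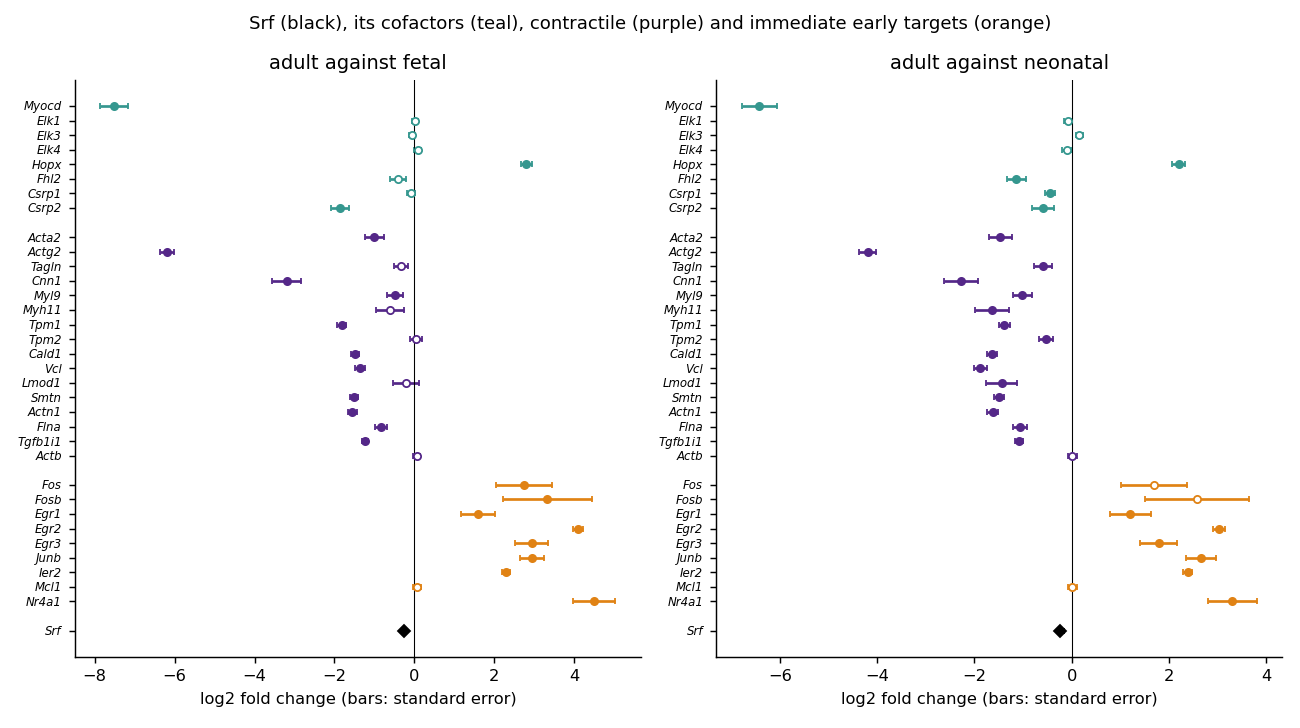
Log2 fold changes with standard errors for Srf, its cofactors and its contractile and immediate early targets, adult against fetal (left) and adult against neonatal (right); filled points passed adjusted p under 0.05. Contractile targets that passed lie to the left of 0, immediate early targets that passed lie to the right, and Srf lies near 0 (-0.26 and -0.23).

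Other transcription factors of heart development, 14 of 15 listed genes found in the table, gave a setting for the 10 members. Of these, 3 rose and 4 fell from fetal to neonatal, 3 rose and 11 fell from fetal to adult, and 1 (Wt1, a factor of the epicardium) rose and 9 fell from neonatal to adult (36.3%, 70.5% and 63.5% of all tested genes called). The median log2 changes were -0.10, -1.65 (-1.21 with genes at 0 set to their bounds) and -1.07. The rise of Wt1 from neonatal to adult was lost without neonatal replicate 1 or adult replicate 1 (adjusted p = 0.0594 and 0.0629). The 3 rises from fetal to adult became 1 without adult replicate 2, and 2 with the replicate block and most other alternatives. Tbx5, a T-box partner of GATA4 and NKX2-5, fell by 3.07 ± 0.24 from fetal to neonatal (log2; adjusted p = 4.41e-05) and by 5.18 ± 0.30 from fetal to adult (adjusted p = 5.23e-07). Irx4, a ventricular cardiomyocyte factor, was at least 69.7-fold lower in adult than in fetal libraries (adjusted p = 7.38e-08). Irx4 passed the low-count filter only through fetal and neonatal libraries. Its lower adult values were thus built into the filter, and this p-value adds no support. Tcf21, a factor of the cardiac fibroblast lineage, rose by 2.86 ± 0.35 from fetal to neonatal (log2; adjusted p = 0.000545), from 11.8 ± 4.25 to 86.1 ± 2.07 CPM.

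The order of the 10 levels per kilobase of exon changed with age. In fetal libraries Meis1 (45.5 ± 2.35 CPM per kilobase, SD, n = 3), Gata4 (41.4 ± 9.51) and Srf (36.6 ± 1.36) led and neighbours among them overlapped, followed by Gata6 (24.3 ± 6.15) and Meis2 (16.3 ± 0.441). Nkx2-5 (11.04 ± 1.97), Hand2 (9.75 ± 3.16) and Gata5 (5.83 ± 1.05) came next, each overlapping its neighbour, and Isl1 (1.27 ± 0.474) and Hand1 (0.834 ± 0.304) were last and overlapped. In neonatal libraries Gata4 led alone (66.7 ± 0.436), then Srf (35.9 ± 2.01), with Gata6 (24.2 ± 0.789) and Meis1 (23.2 ± 1.35) overlapping. Hand2 (12.6 ± 0.122), Meis2 (11.6 ± 0.626), Nkx2-5 (3.61 ± 0.737) and Gata5 (1.54 ± 0.0778) followed without overlap, then Isl1 (0.366 ± 0.213) and Hand1 (0.204 ± 0.0451), which overlapped. In adult libraries the order was Gata4 (42.3 ± 3.42), Srf (30.5 ± 2.78), Gata6 (18.6 ± 3.38), Meis1 (14.5 ± 1.14), Hand2 (12.5 ± 6.81) and Meis2 (5.56 ± 0.483). Gata6 overlapped Meis1, and Meis1 overlapped Hand2, in that order. The place of Hand2 is uncertain at every age, as its annotated exons came to only 681 bases in 14 blocks.

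For 8 members, the tested genes with the most similar profile were found by the root-mean-square difference of mean-centred log2 CPM over the 9 libraries, among genes averaging at least 5 CPM. Nkx2-5 lay closest to Mb (myoglobin, difference 0.27), Kcnj5 (a cardiac potassium channel, 0.27) and Irx4 (0.30), and Gata5 lay closest to Nebl (a Z-disc protein, 0.27), Nkx2-5 (0.30) and Mb (0.34). Meis1 lay closest to Zwint (a kinetochore protein, 0.07), Uck2 (0.10) and Sgms1 (0.11). Meis2 lay closest to Ap1s3 (0.06), Zfp354c (0.09) and Ipo9 (0.09). Gata4 lay closest to Fkbp9 (an endoplasmic reticulum prolyl isomerase, 0.06), Lama4 (laminin alpha 4, 0.07) and Nipal2 (0.08), and Gata6 to Cpt1a (0.06), Tmem30a (0.10) and Gne (0.10). Srf lay closest to Ppp2r3c (0.05), Aldh9a1 (0.05) and Rpap1 (0.06), and Hand2 to Foxc1 (a forkhead factor, 0.19), Adamts15 (0.20) and Vasn (0.22). Log2 CPM used a prior count of 2, which sets the values of genes at 0, as for Gata5 and Nkx2-5 in adult libraries. No neighbours are given for Hand1 and Isl1, whose few counts leave their profiles to that prior. These profiles share libraries and depth, and nearness is a description.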

How the data were processed

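Total RNA of 9 rat cardiac fibroblast cultures was sequenced. Per the submitters' processing notes, the tools were FastQC, Trimmomatic 0.39, STAR 2.5.2b, featureCounts of Subread 1.6.3 and DESeq2. Per the file headers, the deposited values are raw read counts per gene on rn6, made by the authors with featureCounts without a strand option. Exon lengths came from the same table. A deposited table of normalized signal was not used. Libraries held 13392825 to 22850491 assigned counts. A count of 0 allows 3 counts per library, a limit that covers counting error only.

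Libraries were grouped by the age in the labels. Counts were tested with edgeR 4.0.16 (robust glmQLFit and glmQLFTest, TMM, filterByExpr with age) in R 4.3.3 over all 9 libraries with age as the only term, and p-values were adjusted by Benjamini-Hochberg over 11337 tested genes. SE is the absolute log2 change divided by the square root of F. CPM uses TMM-scaled library sizes. Ratios of paralogs (prior count 0.5) were tested by an exact two-sided permutation F test. The scripts were tested on simulated data. Alternatives were DESeq2 1.42.0, its size factors, library size alone, no filter, only the ages compared, a replicate block, a prior count of 2 and leaving out each library. The members, the gene lists and the rule for named genes were chosen with earlier results of these data known. Named genes were the 10 members, any gene of the paralog, cofactor, partner and cardiac factor lists, for SRF targets the 2 called genes with the largest change per direction at a mean of at least 10 CPM, and the 3 nearest profiles per member, left out for Hand1 and Isl1 because of their few counts. RefSeq (GRCr8) gave promoter sequences only.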

Additional observations from a re-analysis of the deposited data

How the results depend on the processing

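Over the 10 members and 3 comparisons, 414 of 448 alternatives kept direction and side of the threshold, 18 lost a call, 4 gained one and 12 changed sign in differences that never passed. The cause was not tested. For neonatal against fetal, the log2 value of Gata6 was 0.0299 with the replicate block and ranged from -0.201 to 0.104 over the libraries left out, and that of Srf from -0.0572 to 0.0193. For adult against fetal, Gata4 was at -0.0652 with library size alone and from -0.1515 to 0.136 over the libraries left out, where the lowest was without fetal replicate 3, and Hand2 ranged from -0.1425 to 0.668, with the lowest without adult replicate 1. For adult against neonatal, Hand2 was at 0.0415 with library size alone and from -0.513 to 0.298 over the libraries left out. Gata6 passed for adult against fetal with library size alone (log2 -0.48, adjusted p = 0.0192) and for adult against neonatal with only those ages fitted (log2 -0.39, adjusted p = 0.0166).

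Leaving out 1 library gave 5 to 7, 6 to 8 and 7 to 9 members called for neonatal against fetal, adult against fetal and adult against neonatal. All genes called for neonatal against fetal ranged from 2476 to 4679, with 2607, 2476 and 2575 without neonatal replicates 1, 2 and 3, against 4114. The permutation test of the Meis1 to Meis2 ratio over the 3 ages no longer passed without neonatal replicate 3 (adjusted p = 0.05). Over the libraries left out, the adult minus fetal log2 difference of this ratio was -0.161 to -0.0301. That difference does not use the neonatal libraries, where the ratio was lowest, so it does not measure how stable the tested result is.

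Libraries with the same number did not deviate together (correlations of -0.06 to 0.05), so the numbers were not taken as a pairing. With the replicate number as a block, 6, 7 and 8 members were called, with Isl1 lost for neonatal against fetal (adjusted p = 0.0599), and 3713, 7801 and 6985 of all genes. Depth limits Hand1 and Isl1, at no more than 35 counts in any library.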
